A study of Homo sapiens with 12 samples.

Results

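The mRNAs of 10 nuclear genes for mitochondrial protein quality control were followed over 4 groups of arrays: the proteases and protease subunits LONP1, CLPP, CLPX, YME1L1, AFG3L2, SPG7, HTRA2 and OMA1, and the chaperones HSPA9 and TRAP1. They were chosen by name, out of 19775 genes that had a probe set with 1 gene symbol, because tetracyclines can hit mitochondrial translation and both cell lines received tetracycline. The platform annotation gave them 44 of the 54675 probe sets (a probe set is a set of short probes for 1 transcript). Of these, 37 carried the member's symbol alone, and 17 of the 37 passed the filter on dim signal, as 29553 probe sets did in all. The other 7 carried a second symbol too and are given apart.

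The 12 arrays measured total RNA of HEK cells (a cell line from human embryonic kidney) that stably carry a TRPM7 transgene under tetracycline control. TRPM7 joins an ion channel to a kinase. The groups, with 3 arrays each, were the WT line with tetracycline, the untreated WT line, the mutant line with tetracycline and the untreated mutant line. The WT line carries the wild-type channel, and the mutant line carries a channel without its kinase domain, which the design text calls nonfunctional and uses as the control for the inducer. All 4 groups grew with 5 ug/mL blasticidin, and the treated ones received tetracycline for 72 hours at an amount given as 1 ug with no volume. The labels do not say how many clones a line stands for or whether replicate arrays are separate cultures. The p-values therefore cover the spread from array to array, which may be technical, and the number of arrays limits the precision. Groups are named as labelled. The brightest TRPM7 probe set, the only one read for this gene, was not higher with tetracycline in either line (log2 fold change -0.85 ± 0.30 (SE), limma adjusted p = 0.0643, in the WT line, and -0.20 ± 0.30, adjusted p = 1, in the mutant line), and so it does not check the labels. Whether this probe set lies within the transgene is not given in the sources used here. Of 9 HEK markers 7 were above the median of all values on all 12 arrays, NEFM on 8 and LHX1 on 1. Of 10 markers of other cell types PTPRC, ALB, COL1A2 and CDH5 were above that median on 0 arrays, DCN on 1, DES on 2 and CD3E on 3, while PECAM1 was above it on 8, HBB on 11 and COL1A1 on 12. In RNA from whole cultures, fewer cells of a type and less RNA per cell cannot be told apart.

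Mitochondria keep their own set of proteases. In the matrix, LONP1 and the ClpXP complex, built from the peptidase CLPP and the unfoldase CLPX, degrade damaged and regulatory proteins. In the inner membrane, YME1L1 faces the intermembrane space, and AFG3L2, alone or with SPG7 (paraplegin), faces the matrix. OMA1 is a membrane protease that is switched on by stress and cuts the fusion protein OPA1 and the messenger DELE1, which relays mitochondrial stress to the ATF4 pathway. HTRA2 is a serine protease of the intermembrane space, HSPA9 (mortalin) is the matrix HSP70 that pulls in and folds imported proteins, and TRAP1 is the mitochondrial HSP90. Tetracyclines bind the mitochondrial ribosome, and an imbalance of proteins made inside and outside mitochondria is a classic trigger of the mitochondrial stress response.

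RefSeq promoter windows of 250 bases upstream of the gene start (build GRCh38.p14) were held for 8 of the 10 genes, as 11 windows. They were searched on both strands for 4 motifs of factors tied to stress or mitochondrial genes. The letters were TGATGNAA (the C/EBP-ATF composite), TGACGTCA (the cAMP response element), CACGTG (the E-box) and the palindromic NRF1 site, and no match overlapped another in these windows. The windows below are those of LONP1 and TRAP1, whose probe sets passed the test in opposite directions in the WT line, and of HSPA9, which holds the same motif as LONP1 and did not pass. They read 5′ to 3′ on the minus strand, from chr19:5720147-5720396, chr16:3717525-3717774 and chr5:138575402-138575651, with motif matches in capitals.
LONP1: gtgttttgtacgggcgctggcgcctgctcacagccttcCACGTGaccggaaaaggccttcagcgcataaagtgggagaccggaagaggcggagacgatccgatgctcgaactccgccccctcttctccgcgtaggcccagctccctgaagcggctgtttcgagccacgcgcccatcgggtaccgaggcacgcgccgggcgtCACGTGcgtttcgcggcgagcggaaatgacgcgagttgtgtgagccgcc
TRAP1: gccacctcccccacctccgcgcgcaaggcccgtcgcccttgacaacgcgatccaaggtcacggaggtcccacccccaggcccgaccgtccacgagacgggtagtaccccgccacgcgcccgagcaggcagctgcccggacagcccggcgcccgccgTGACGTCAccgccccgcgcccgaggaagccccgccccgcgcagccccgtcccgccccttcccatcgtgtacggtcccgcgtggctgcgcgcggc
HSPA9: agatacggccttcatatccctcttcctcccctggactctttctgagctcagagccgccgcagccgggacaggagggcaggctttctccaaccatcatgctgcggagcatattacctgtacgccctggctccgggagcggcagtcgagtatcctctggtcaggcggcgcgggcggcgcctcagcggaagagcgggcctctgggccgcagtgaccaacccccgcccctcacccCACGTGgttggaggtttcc
LONP1 had 2 E-boxes, at 212 to 207 and at 49 to 44 bases before the gene start, and HSPA9 had 1, at 19 to 14 bases before it. TRAP1 had a cAMP response element at 94 to 87 bases before the start. A second, more upstream window of LONP1 held an NRF1 site at 200 to 191 bases before that start. The C/EBP-ATF composite was found in 0 of the 11 windows. Of 35116 RefSeq promoter windows of this length, 6.34% held the E-box, 1.65% the cAMP response element, 1.03% the NRF1 site and 3.14% the composite. A match only describes these letters.

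With tetracycline, which the design text names as the inducer of the channel, LONP1 rose in the WT line and AFG3L2, OMA1 and TRAP1 fell, each judged by its brightest probe set. A single probe set each of CLPX and YME1L1 fell too. Values are log2 MAS5 signals, and each change is a log2 fold change with its standard error from 1 limma fit of the 12 arrays. A call needs a p under 0.05 after Benjamini-Hochberg adjustment over the 29553 tested probe sets. In all, 6 of the 17 tested probe sets were called, 1 higher and 5 lower, against 16.9% of all tested probe sets (7.83% higher and 9.11% lower), and 9 had an unadjusted limma p below 0.05, against 31.2%. The members' median log2 fold change was -0.07 over the 17 probe sets. By gene, 4 of 9 brightest probe sets were called, against 18% of all genes' brightest probe sets, and their median was 0.16, against 0.03 over all genes. SPG7 had no probe set of its own above the filter. The members' median SD was 0.121 in the WT line with tetracycline and 0.192 in the untreated WT line. All tested probe sets had 0.326 and 0.299. In the mutant line the members' median SD was 0.113 with tetracycline and 0.0964 untreated, against 0.19 and 0.174. Probe sets of like brightness were not compared, so a smaller spread is not shown to be a trait of the members.

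**Figure D1:**
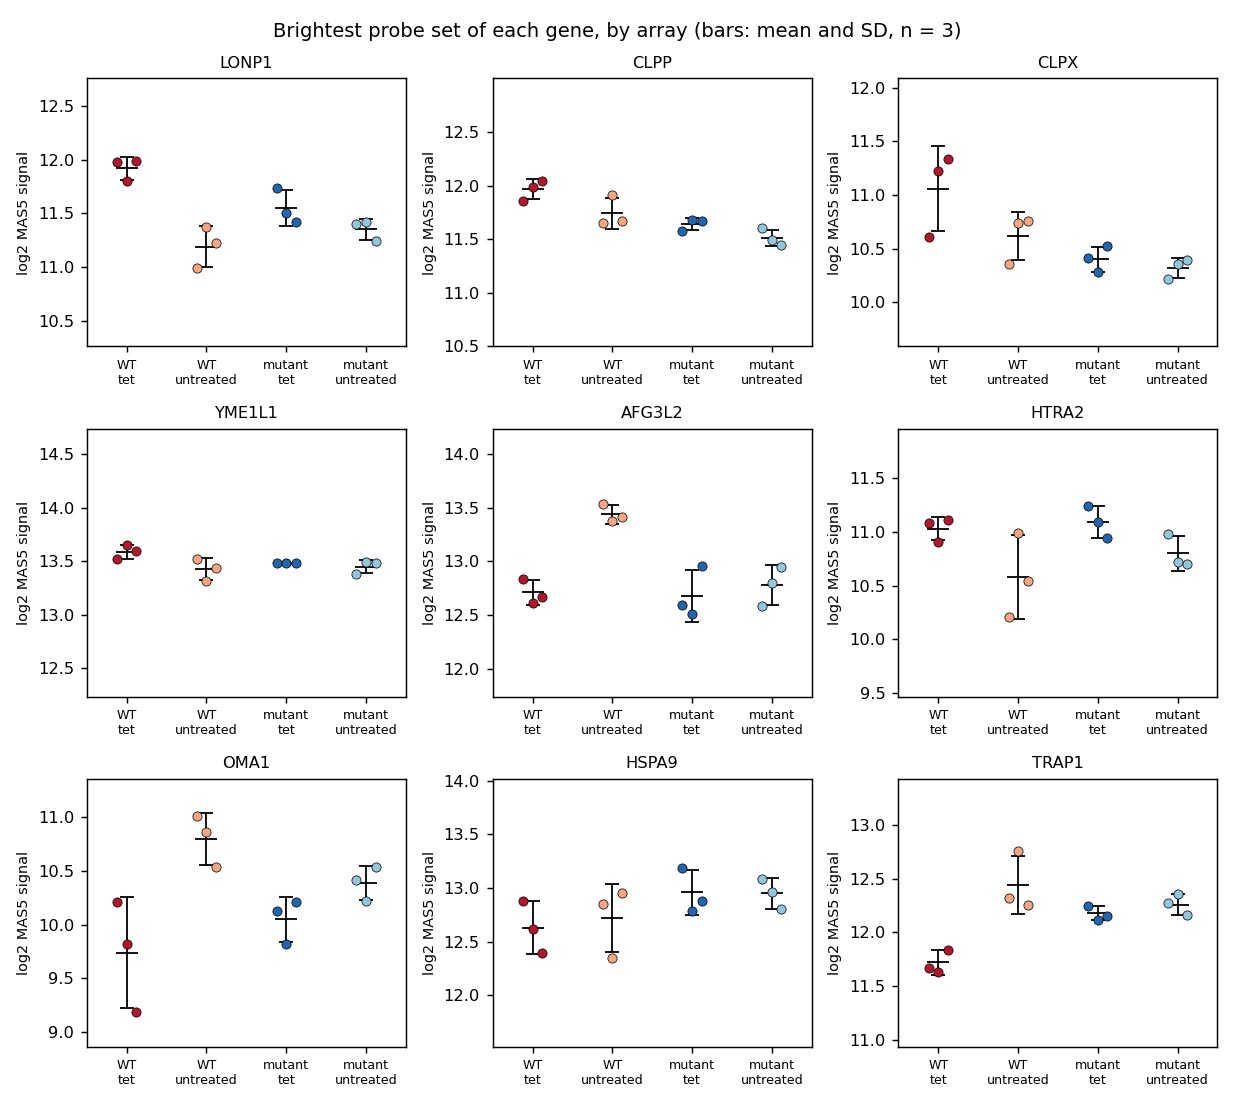
Log2 MAS5 signal of the brightest probe set of each of the 9 genes with a tested probe set, in 1 panel per gene, with 1 point per array and bars for the mean and SD of the 3 arrays of a group. The LONP1 points of the WT line with tetracycline (11.80 to 11.99) lie above those of the untreated WT line (10.99 to 11.37), and the AFG3L2, OMA1 and TRAP1 points lie below.

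LONP1, the main soluble protease of the matrix, had log2 signals of 11.98, 11.80 and 11.99 in the WT line with tetracycline, against 10.99, 11.37 and 11.22 in the untreated WT line. Every treated array was above every untreated one. The means were 11.92 ± 0.11 and 11.19 ± 0.19 (SD, n = 3 each), and LONP1 rose by 0.73 ± 0.14, or 1.66-fold (limma adjusted p = 0.00287). Without the 4 replicate 3 arrays the change was 0.71 with a limma adjusted p of 0.0757. That smaller fit called 1.83% of all tested probe sets, against 16.9% in the main fit. The mutant line had values of 11.74, 11.50 and 11.42 with tetracycline and 11.40, 11.42 and 11.24 untreated, groups that narrowly overlapped. The change there was 0.20, with a 95% interval from -0.09 to 0.49 and an adjusted p of 1.

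CLPP, the peptidase of ClpXP, had log2 signals of 11.86, 11.99 and 12.04 in the WT line with tetracycline, against 11.65, 11.91 and 11.67 in the untreated WT line. The groups overlapped, and the change of 0.22 ± 0.12 did not pass (limma adjusted p = 0.212). CLPP averaged in the mutant line 11.64 ± 0.06 with tetracycline and 11.51 ± 0.07 untreated (SD, n = 3 each), a difference of 0.13 with an adjusted p of 1.

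CLPX, which unfolds proteins and feeds them to CLPP, was measured by 2 probe sets whose fold changes in the WT line differed in sign. The brighter one, 204809_at, had 10.61, 11.22 and 11.34 in the WT line with tetracycline, against 10.36, 10.74 and 10.76 in the untreated WT line, a change of 0.44 ± 0.19 that did not pass (limma adjusted p = 0.116). Its replicate 1 array with tetracycline was the low one, and without that array the change was 0.67 (adjusted p = 0.00525). The dimmer one, 223507_at, had 8.96, 9.18 and 8.88 in the WT line with tetracycline, against 9.40, 9.60 and 9.48 in the untreated WT line. Its groups did not overlap and it fell by 0.49 ± 0.16 (adjusted p = 0.0419), a call that held in 6 of 22 alternative settings. With only the WT arrays in the fit its adjusted p was 0.2, and it was above 0.05 in 11 of the 12 fits that left out 1 array. Averaged over both probe sets, CLPX changed by -0.03 ± 0.14 (adjusted p = 0.917). No single direction can be given for CLPX in the WT line.

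YME1L1, the inner-membrane protease that faces the intermembrane space, also had probe sets of opposite sign. The brightest, 216304_x_at, averaged 13.59 ± 0.07 in the WT line with tetracycline and 13.43 ± 0.10 in the untreated WT line (SD, n = 3 each), a change of 0.16 ± 0.09 (limma adjusted p = 0.244). Probe set 201352_at had 12.85, 12.73 and 12.76 in the WT line with tetracycline, against 13.29, 13.32 and 13.12 in the untreated WT line. All treated arrays were below all untreated ones, and this probe set fell by 0.46 ± 0.10 (adjusted p = 0.00572). With only the WT arrays in the fit its adjusted p was 0.0728, and without the replicate 3 arrays it was 0.0659. Probe sets 201351_s_at and 232216_at changed by 0.14 (adjusted p = 0.344) and 0.52 (adjusted p = 0.377). The other 16 of the 20 probe sets annotated to YME1L1 were below the filter, with single values between 0.29 and 6.84. Whether these dim probe sets read YME1L1, as the platform annotation has it, was not tested.

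**Figure D2:**
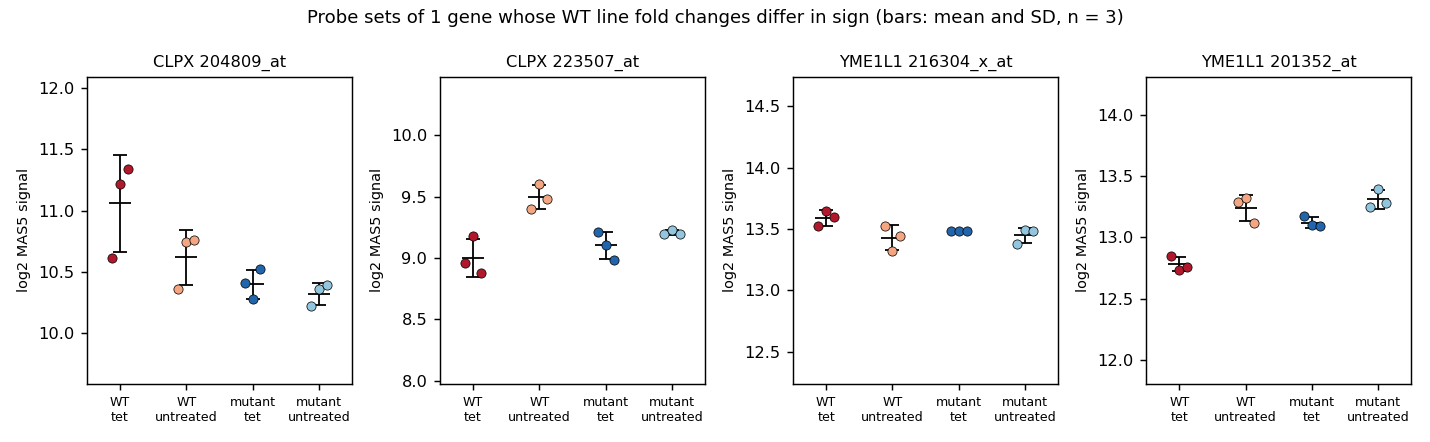
Log2 MAS5 signal of pairs of probe sets for CLPX and for YME1L1 whose fold changes in the WT line differ in sign, with 1 point per array and bars for the mean and SD (n = 3). In the WT line 223507_at (CLPX) and 201352_at (YME1L1) are lower with tetracycline, while 204809_at and 216304_x_at have fold changes of 0.44 and 0.16 that did not pass.

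AFG3L2, the catalytic subunit of the matrix-facing m-AAA protease, had log2 signals of 12.84, 12.61 and 12.67 in the WT line with tetracycline, against 13.54, 13.38 and 13.41 in the untreated WT line (probe set 1557820_at). The groups lay apart, and AFG3L2 fell by 0.74 ± 0.14 on the log2 scale to a ratio of 0.6 (limma adjusted p = 0.00254). The second probe set, 202486_at, had 10.06, 9.98 and 10.31 in the WT line with tetracycline and 10.26, 10.55 and 10.86 in the untreated WT line, which overlapped, and its change of -0.44 ± 0.16 did not pass (adjusted p = 0.0795). Averaged over both tested probe sets, the change was -0.59 ± 0.12 (limma adjusted p = 0.00499). A further probe set, 232919_at, was below the filter, with values between 3.03 and 6.22. Mutant arrays had on 1557820_at 12.59, 12.51 and 12.96 with tetracycline and 12.58, 12.80 and 12.95 untreated, a difference of -0.09 (adjusted p = 1). RefSeq lists a pseudogene copy of this gene, AFG3L2P1, and whether the probes also read it was not tested.

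SPG7, the partner of AFG3L2 in the mixed m-AAA protease, could not be followed on its own. Its only probe set without a second symbol, 238286_at, was below the filter, with values between 0.20 and 5.92. The 6 tested probe sets that carried SPG7 together with LOC101930112 had log2 fold changes from -0.42 to 0.11 in the WT line, and the smallest limma adjusted p was 0.129.

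OMA1, the stress-activated protease that cuts OPA1, had the largest fold change of the 9 brightest probe sets. Its log2 signals were 10.21, 9.82 and 9.18 in the WT line with tetracycline, against 11.01, 10.86 and 10.54 in the untreated WT line (226019_at). The treated arrays spread over a full log2 unit, and all lay below the untreated ones. The means were 9.74 ± 0.52 and 10.80 ± 0.24 (SD, n = 3 each), and OMA1 fell by 1.07 ± 0.23 (SE), a ratio of 0.478 (limma adjusted p = 0.00571). With only the WT arrays in the fit the adjusted p was 0.0525, and without the replicate 3 arrays it was 0.0592. Probe set 226020_s_at, annotated to both OMA1 and DAB1, had 10.33, 10.04 and 9.83 in the WT line with tetracycline, against 10.94, 10.96 and 10.98 in the untreated WT line, and fell by 0.89 ± 0.15 (adjusted p = 0.00137). In the mutant line 226019_at had 10.13, 9.82 and 10.21 with tetracycline and 10.42, 10.22 and 10.54 untreated. These groups did not overlap either, yet the change of -0.34 ± 0.23 did not pass (adjusted p = 1).

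HTRA2, which degrades damaged proteins in the intermembrane space and binds the caspase inhibitor XIAP once released, had positive fold changes on both of its probe sets in both lines, none of them called. Probe set 203089_s_at had 11.08, 10.91 and 11.11 in the WT line with tetracycline, against 10.21, 10.99 and 10.54 in the untreated WT line, where the replicate 2 array was as high as the treated ones. Its change was 0.45 ± 0.18 (limma adjusted p = 0.0941), and without that untreated array it was 0.66 (adjusted p = 0.0142). It averaged in the mutant line 11.09 ± 0.15 with tetracycline and 10.80 ± 0.16 untreated (SD, n = 3 each), a change of 0.29. Probe set 211152_s_at changed by 0.31 ± 0.16 in the WT line, where its groups did not overlap, and by 0.36 ± 0.16 in the mutant line (adjusted p = 0.197 and 1). Of the 17 member probe sets it was the only one in the mutant line with an unadjusted limma p below 0.05.

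HSPA9, the HSP70 of the matrix and the force behind import, overlapped between treated and untreated arrays of both lines on its brightest probe set. This probe set, 200691_s_at, had 12.88, 12.62 and 12.39 in the WT line with tetracycline, against 12.85, 12.35 and 12.95 in the untreated WT line. The mutant line had 13.19, 12.79 and 12.88 with tetracycline, against 13.08, 12.96 and 12.80 untreated. The change was -0.09 in the WT line, with a 95% interval from -0.45 to 0.27 (limma adjusted p = 0.761), and 0.01 in the mutant line, with an interval from -0.35 to 0.37. These intervals leave out a doubling and a halving, and they do not show that HSPA9 was equal. Probe sets 200692_s_at and 200690_at changed by -0.07 (adjusted p = 0.855) and -0.39 (adjusted p = 0.23) in the WT line. A further probe set, 232200_at, was below the filter, with values between 2.72 and 6.09. RefSeq lists a pseudogene copy of HSPA9 too, HSPA9P1, and its part was not tested.

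TRAP1, the HSP90 of mitochondria, went lower in the WT line. Its log2 signals were 11.67, 11.63 and 11.84 in the WT line with tetracycline, against 12.32, 12.76 and 12.26 in the untreated WT line (201391_at). No treated array reached an untreated one, and TRAP1 fell by 0.73 ± 0.14, a ratio of 0.603 (limma adjusted p = 0.00273). The mutant line had values of 12.25, 12.12 and 12.15 with tetracycline and 12.27, 12.36 and 12.16 untreated, a difference of -0.09 (adjusted p = 1). A second TRAP1 probe set, 239622_at, was below the filter, with values between 0.24 and 4.78. Of the 4 genes called by their brightest probe set in the WT line, AFG3L2 and TRAP1 were called under all 23 alternatives run, LONP1 under 22 and OMA1 under 21. The WT arrays spread more than the mutant ones, and with only the WT arrays in the fit the adjusted p was 0.0206 for AFG3L2, 0.0412 for LONP1 and 0.0454 for TRAP1.

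In the mutant line tetracycline moved no member past the threshold. The limma fit called 0 of the 17 probe sets and 0% of all 29553 tested. At an unadjusted p below 0.05 it gave 1 of the 17 and 620 of all tested probe sets, or 2.1%. The members' median log2 fold change was 0.01. In 4 probe sets the treated arrays lay below the untreated ones without overlap (YME1L1 201352_at and 232216_at, OMA1 226019_at and HSPA9 200690_at), against 6.39% of all tested probe sets. In 0 of the 17 did they lie above, against 6.86%. For the WT line 2 of the 17 did not overlap upward and 5 downward, against 13.7% and 13% of all tested probe sets.

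The difference between the lines' responses to tetracycline, for which the design uses the mutant line as control, did not pass for any member. In the limma fit 0 of 17 probe sets were called, against 0.139% (41) of all tested, and 4 had an unadjusted p below 0.05, against 14.5% of all. Those 4 were the brightest probe sets of LONP1, AFG3L2, OMA1 and TRAP1. The WT change minus the mutant change was 0.53 ± 0.19 for LONP1 (95% interval 0.12 to 0.94, adjusted p = 0.231). It was -0.65 ± 0.19 for AFG3L2 (adjusted p = 0.151), -0.64 ± 0.19 for TRAP1 (adjusted p = 0.152) and -0.72 ± 0.32 for OMA1 (adjusted p = 0.313). The WT replicate 1 array with tetracycline bears on these values: without it AFG3L2 differed by -0.71 (adjusted p = 0.0319) and OMA1 by -0.96 (adjusted p = 0.0415), and with array weights, where that array had the lowest weight of 0.267, AFG3L2 and TRAP1 passed (adjusted p = 0.0471 and 0.0398). Over all tested probe sets, 2702 were called without that array and 2493 with array weights, against 41 in the main fit. A call in the WT line and none in the mutant line is therefore not, by itself, shown to be a difference between the lines.

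**Figure D3:**
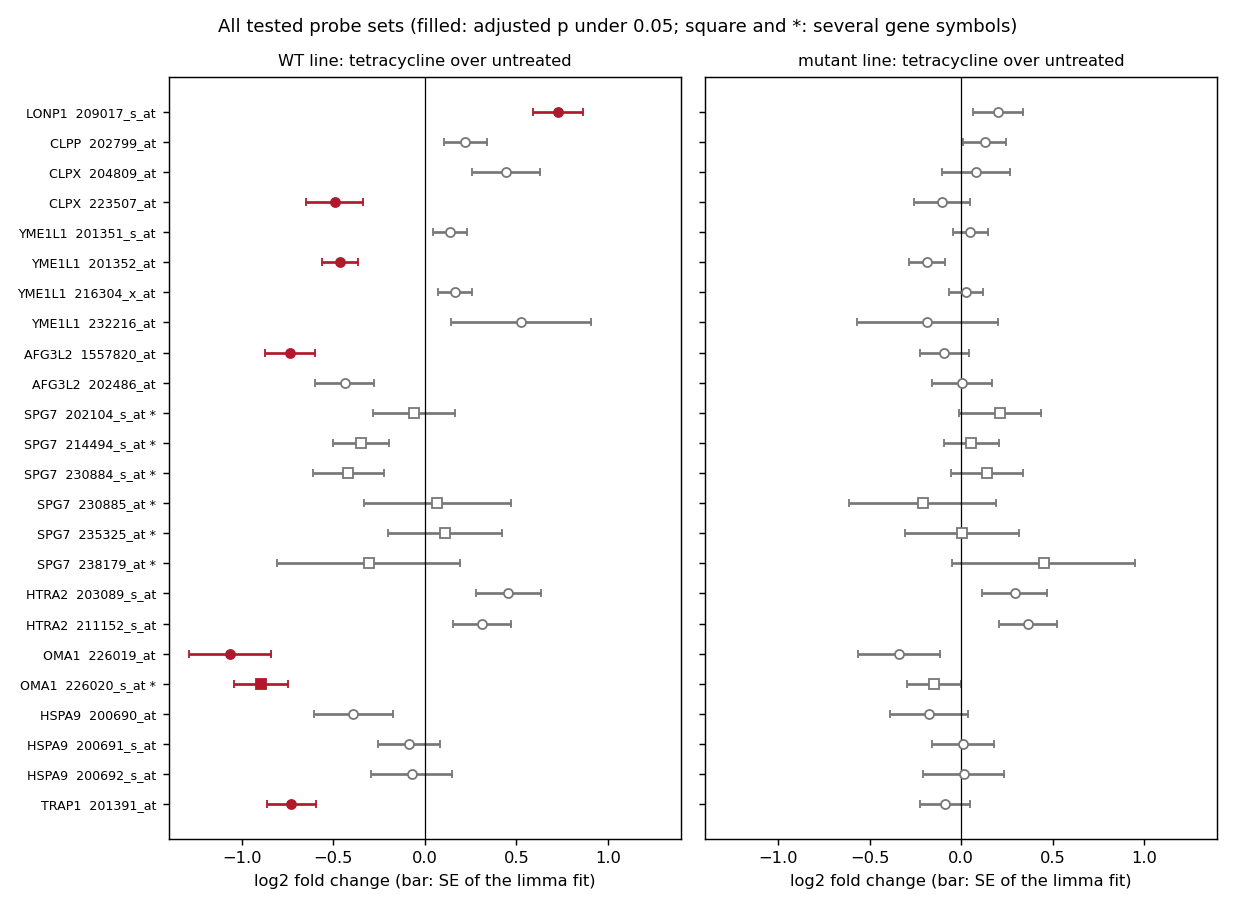
Log2 fold change of tetracycline over untreated in the WT line (left) and the mutant line (right) for every tested member probe set, with bars for the standard error of the limma fit. Filled symbols mark an adjusted p under 0.05 and squares mark probe sets with several symbols. LONP1 is filled on the positive side of the WT panel at 0.73 and OMA1 on the negative side at -1.07, and no symbol is filled in the mutant panel.

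Between the lines AFG3L2 differed before treatment, and TRAP1 and 1 probe set each of CLPX and YME1L1 differed with tetracycline. In untreated cells, AFG3L2 (1557820_at) had 13.54, 13.38 and 13.41 in the WT line, against 12.58, 12.80 and 12.95 in the mutant line, with no overlap, and was higher by 0.67 ± 0.14 (limma adjusted p = 0.00642). It was the only 1 of the 17 probe sets called, against 12.9% of all tested (4.19% higher). Without overlap, 4 of the 17 lay higher in the WT line and 0 lower, against 13.4% and 22.1% of all tested. The AFG3L2 values of the treated lines overlapped, at 12.71 ± 0.12 in WT cells and 12.68 ± 0.24 in mutant cells (SD, n = 3 each), a difference of 0.02 (adjusted p = 0.926). The untreated WT arrays enter both this comparison and the WT change. The second AFG3L2 probe set differed by 0.20 in untreated cells (adjusted p = 0.467).

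With tetracycline 3 of the 17 probe sets were called between the lines, 1 higher and 2 lower in the WT line, against 27.6% of all tested (10.2% higher and 17.3% lower). CLPX (204809_at) was higher in the WT line by 0.66 ± 0.19 (limma adjusted p = 0.0173), and its second probe set differed by -0.10 (adjusted p = 0.666). Averaged over both probe sets, the CLPX difference was 0.28 ± 0.14 and did not pass (adjusted p = 0.141). TRAP1 was lower by 0.46 ± 0.14 (adjusted p = 0.0213) and YME1L1 201352_at by 0.34 ± 0.10 (adjusted p = 0.0195). LONP1 and CLPP were higher on all WT arrays than on all mutant arrays, by 0.37 and 0.32, and did not pass (limma adjusted p = 0.0563 and 0.0509). Such a lack of overlap was common here. It held for 4 of the 17 upward and 4 downward, against 16.7% and 24.7% of all tested probe sets. Without the WT replicate 2 array with tetracycline none of the 17 was called, and without the WT replicate 1 array with tetracycline 6 were. Leaving out mutant replicate 1 or 2 with tetracycline left 1 called, and leaving out WT untreated replicate 1 or 2 gave 5. Over all tested probe sets, 8151 were called in the main fit, 5681 without WT replicate 2 and 10245 without WT replicate 1 with tetracycline. The count was 5408 and 5216 without mutant replicate 1 and 2 with tetracycline, and 8469 and 8705 without WT untreated replicate 1 and 2.

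Probe sets with several symbols added to this comparison. Of 7, 3 were lower in the WT line with tetracycline, against 17.3% of all tested probe sets. SPG7 and LOC101930112 share 6 of these 7, so those 6 probe sets do not stand for separate genes. The probe set 230884_s_at, shared by SPG7 and LOC101930112, had 7.20, 7.46 and 7.45 in the WT line with tetracycline, against 8.62, 8.66 and 8.37 in mutant cells with tetracycline, a gap wider than the spread of either group. It was lower by 1.18 ± 0.20 (limma adjusted p = 0.000854), which held in all 21 alternatives run for it. In untreated cells it was lower by 0.62 ± 0.20 without passing (adjusted p = 0.0502). The sister probe set 214494_s_at differed by -0.45 with tetracycline (adjusted p = 0.0399, called in 10 of 22 alternatives), and the one shared by OMA1 and DAB1 by -0.45 (adjusted p = 0.0343, called in 11 of 22 alternatives). Which of the paired genes these values follow cannot be told apart.

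Signs of RNA quality moved with the line. The log2 ratio of 3′ to 5′ actin control signal lay between 0.632 and 1.36 on the 6 WT arrays and between 0.226 and 0.288 on the 6 mutant arrays, and the 18S ribosomal RNA control between 7.29 and 9.33 on WT arrays and 4.79 and 6.94 on mutant arrays. The GAPDH ratio overlapped, at 0.0152 to 0.168 on WT arrays and 0.0382 to 0.135 on mutant arrays. Their part in the differences between lines was not tested. Scaling also matters there: quantile normalization moved the share of higher calls among all called probe sets from 32.5% to 43.2% in untreated cells and from 37.1% to 46.4% with tetracycline. The summed signal of 10 markers of other cell types was 1590 to 1850 in the WT line with tetracycline, against 1010 to 1270 in the untreated WT line. For mutant arrays it was 887 to 1470 with tetracycline and 1100 to 1200 untreated. COL1A1, with log2 signals between 8.93 and 10.26, was the brightest of these markers. The summed signal of the 9 HEK markers moved too, at 67000 to 82600 in the WT line with tetracycline, against 54400 to 57100 in the untreated WT line. For mutant arrays it was 60900 to 66700 with tetracycline and 56100 to 58400 untreated. The part of either sum in the WT changes was not tested.

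Other genes of mitochondrial protein quality control were read through 5 lists, each gene by its brightest probe set and set beside the median of 0.03 and the 9.41% higher and 8.57% lower calls over all genes in the WT line. Among 13 other mitochondrial peptidases 1 rose and 3 fell with tetracycline in the WT line, with a median of -0.37. LACTB, a filament-forming protein of the intermembrane space, had 9.09, 8.79 and 8.80 in the WT line with tetracycline, against 9.77, 9.91 and 9.79 in the untreated WT line, and fell by 0.93 ± 0.18 (limma adjusted p = 0.00301). PMPCA, a subunit of the peptidase that removes import signals, fell by 0.57 (adjusted p = 0.00968), and MIPEP, which trims some of the cut proteins further, fell by 0.66 (adjusted p = 0.0428, called in 7 of 22 alternatives). IMMP1L, a subunit of the inner-membrane peptidase, rose by 0.57 (adjusted p = 0.0322).

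Among 13 tested chaperones and import-motor genes 2 rose and 5 fell in the WT line, with a median of -0.41. GRPEL1, the nucleotide exchange factor of HSPA9, had 10.41, 10.16 and 9.93 in the WT line with tetracycline, against 11.13, 10.89 and 11.10 in the untreated WT line. All treated arrays were lower, and GRPEL1 fell by 0.87 ± 0.15 (limma adjusted p = 0.00183), while HSPA9 itself was not called. HSPE1, the lid of the matrix chaperonin, fell by 0.57 ± 0.12 (adjusted p = 0.00663), and the chaperonin HSPD1 changed by -0.24 ± 0.10 without passing (adjusted p = 0.116). HSCB, a helper of iron-sulfur cluster assembly, rose by 0.49 (adjusted p = 0.0143), and CLPB, a disaggregase of the intermembrane space, rose by 0.86 (adjusted p = 0.0198).

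Among 15 tested scaffolds, partners and substrates of the proteases 1 rose and 2 fell in the WT line, with a median of -0.10. ALAS1, the first enzyme of heme synthesis and a substrate of matrix proteases, had 11.23, 11.05 and 11.01 in the WT line with tetracycline, against 10.32, 10.35 and 10.58 in the untreated WT line, and rose by 0.68 ± 0.13 (limma adjusted p = 0.00301). STARD7, a lipid carrier, fell by 0.96 ± 0.22 (adjusted p = 0.0098), and PHB2, a scaffold around the m-AAA protease, fell by 0.43 ± 0.12 (adjusted p = 0.0221). PRELID1 changed by -0.37 (adjusted p = 0.0559). The OMA1 substrates OPA1 and DELE1 changed by -0.03 (adjusted p = 0.902) and -0.02 (adjusted p = 0.967).

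The import channel list also held import receptors and small carrier chaperones. Among its 15 tested genes 0 rose and 4 fell in the WT line, with a median of -0.32. TIMM23 was below the filter, and TOMM6 and TOMM7 had no probe set of their own. TIMM13, a small carrier chaperone of the intermembrane space, had 12.20, 10.30 and 10.43 in the WT line with tetracycline, against 13.00, 12.43 and 12.56 in the untreated WT line. It fell by 1.69 ± 0.35 (limma adjusted p = 0.00501), with replicate 1 far above the other treated arrays. The receptors TOMM20, TOMM22 and TOMM70 fell by 0.46, 0.50 and 0.53 (adjusted p = 0.0227, 0.0416 and 0.0284), and these calls held in 15, 8 and 14 of 22 alternatives.

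Among 20 regulators of the mitochondrial and integrated stress responses 9 rose and 1 fell in the WT line, with a median of 0.57. This list was already known to move in these data and is no independent support. ATF4, the transcription factor at its centre, had 14.93, 14.74 and 15.12 in the WT line with tetracycline, against 14.01, 14.17 and 14.14 in the untreated WT line, and rose by 0.82 ± 0.12 (limma adjusted p = 0.000657). DDIT3, ATF3 and PPP1R15A rose by 2.06, 2.03 and 1.79 (adjusted p = 6.34e-05, 6.34e-05 and 0.00028), and CEBPB rose by 1.16 (adjusted p = 0.000367). EIF2AK1, the kinase that DELE1 activates, fell by 0.44 ± 0.14 (adjusted p = 0.0449, called in 7 of 22 alternatives). ATF5, linked to the mitochondrial response in mammals, had 8.60, 6.96 and 6.79 in the WT line with tetracycline, against 8.01, 7.33 and 8.07 in the untreated WT line, a wide overlap with a change of -0.36 (adjusted p = 0.567). In the mutant line ATF4 had 14.21, 14.15 and 13.92 with tetracycline and 13.86, 13.91 and 13.60 untreated, a change of 0.31 ± 0.12 that did not pass (adjusted p = 1). The test of the lines' responses against each other was passed by DDIT3 and ATF3 in this list, against 0.145% of all genes' brightest probe sets, and DDIT3 differed by 1.80 ± 0.27 (adjusted p = 0.0329). These calls held in 10 of 21 alternatives for DDIT3 and 7 of 21 for ATF3, and without the replicate 3 arrays both had an adjusted p of 0.832.

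In the mutant line none of the 5 lists had a called gene. The regulators had a median of 0.26 there, with 16 of 20 genes positive, against a median of 0.02 over all genes. The medians of the other lists lay between -0.04 and 0.02. With only the WT arrays in the fit, where 4.14% of all tested probe sets were called, the regulators had 7 rises and 0 falls, while the peptidases had 1 fall, the chaperones 1 fall, and the scaffolds and the import channel 0 calls. The members then had 1 rise and 2 falls over all their probe sets with 1 symbol. Without the replicate 3 arrays, where 1.83% were called, the members had 0 rises and 2 falls.

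**Figure D4:**
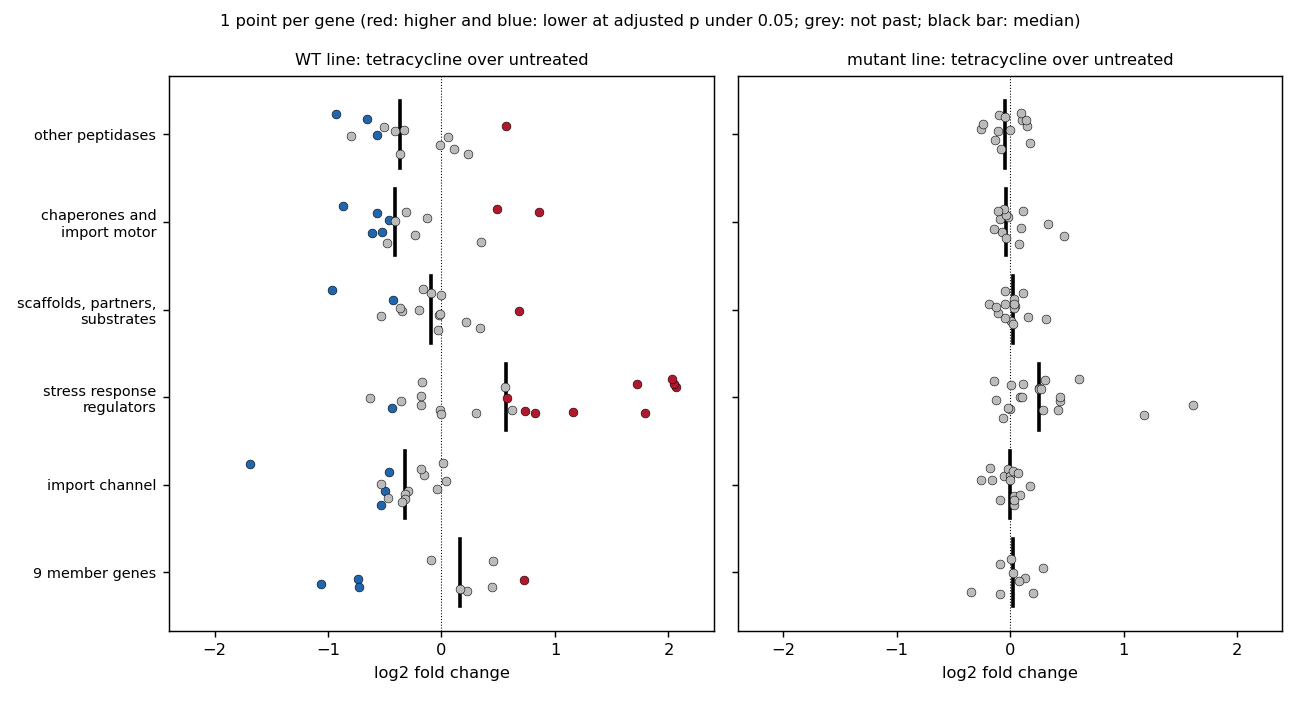
Log2 fold change with tetracycline of every gene of the 5 lists and of the 9 member genes, by the brightest probe set, in WT and in mutant cells, with 1 point per gene and a black bar for the median. Red and blue points passed at an adjusted p under 0.05. The regulators have a median of 0.57 in the WT line, the chaperones -0.41 and the peptidases -0.37, and no point is coloured in the mutant line.

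RNAs of the mitochondrial genome, whose translation tetracyclines can hit, were read by 10 probe sets for 7 genes. None was called for tetracycline in either line (0 of 10 by limma), against 16.9% of all tested probe sets in WT cells and 0% in mutant cells. At an unadjusted p below 0.05 there was 1 of 10 in the WT line (ND2, at 0.42) and 0 of 10 in the mutant line. The log2 fold changes in the WT line lay between -0.29 and 0.48. The probe sets of COX1, ND2, COX2 and ND4 and the brighter one of ATP6 had signals between 14.41 and 15.93, and how far such bright signals follow a change in RNA was not tested. COX1 had 15.58, 15.68 and 15.73 in the WT line with tetracycline, against 15.60, 15.60 and 15.35 in the untreated WT line, values that overlapped. ND6 is the one of these genes read from the other strand of the mitochondrial DNA. With tetracycline it was higher in WT than in mutant cells by 1.43 ± 0.39 (limma adjusted p = 0.0143). In that comparison 27.6% of all tested probe sets were called. ND6 had 12.72, 12.02 and 11.31 in the WT line with tetracycline, a wide spread, against 10.91, 10.67 and 10.18 in the mutant line with tetracycline. Its untreated WT arrays were also above the untreated mutant arrays without overlap, by 1.00 ± 0.39 (adjusted p = 0.102). The lines' responses to tetracycline differed for ND6 by 0.42 (adjusted p = 0.769).

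The genes whose profiles over all 12 arrays came closest to each called member were found by the root mean square difference of centred log2 values, as a description. For LONP1 they were BACH2, RUSC1 and TMEM200C (0.097, 0.101 and 0.116, against a median of 0.442 over all genes). For AFG3L2 they were ACTR6, ACTR3B and PRMT3, at 0.117 to 0.132. For TRAP1 they were SS18L1, ISL1 and TMEM164, at 0.0904 to 0.12, for OMA1 TUBGCP3, HADH and NEMF, at 0.153 to 0.168, and for CLPX UQCRB, AAMDC and POLR2K, at 0.086 to 0.103. No other member was among the closest genes of any of these.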

How the data were processed

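The arrays hold 1 sample each. Per the submitters' processing notes, the authors made the deposited values with MAS5, so each is the intensity of a probe set on a linear scale, and its version and settings are not given in the sources used here. After trimming 2% at each end every array had a mean of 500.1, so the authors' values had been scaled per array. Signals below 1 were set to 1 and log2 was taken. Probe sets were tested if at least 1 group mean exceeded 6.39, the median of the whole table, and AFFX controls were left out. Older symbols were updated through RefSeq gene identifiers. Limma 3.58.1 in R 4.3.3 fitted 1 mean per group with eBayes and a variance trend. A trial run of the fit used simulated data in which each probe set had the same spread in all groups. It does not cover the wider spread of the WT arrays. Plots used matplotlib 3.10.9 and Python 3.11.15.

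The members, gene lists and tests were chosen with earlier results of these data known. Every probe set of a member is accounted for, and its brightest tested probe set stands for it. From each list up to 4 genes with the smallest p in the WT line were named, plus 9 genes fixed by name, and for each member called by its brightest probe set the 3 most alike profiles. Alternatives were other filters, an offset of 16, quantile normalization, no variance trend, only the groups compared, replicate and processing blocks, array weights, leaving out arrays, and the mean of a gene's probe sets.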

Additional observations from a re-analysis of the deposited data

How the results depend on the processing

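The 6 member probe sets called for tetracycline in the WT line became 3 with only the WT arrays in the fit and 2 without the replicate 3 arrays, and lay between 5 and 7 when 1 array was left out. For the mutant line the count was 0 under every alternative run. For the difference between the lines' responses it was 2 with array weights and 0 to 2 with 1 array left out. Between the untreated lines it was 1, against 2 with only the groups compared or with array weights, and 1 to 2 with 1 array left out. With tetracycline it was 3 between the lines, against 5 with the stricter filter or array weights, 1 without the variance trend, 0 without the replicate 3 arrays and 0 to 6 with 1 array left out. Over all tested probe sets it was 8151, against 6083 with the stricter filter, 11651 with array weights and 7125 without the variance trend. Without the replicate 3 arrays it was 2771, and with 1 array left out 5216 to 10245. Over all tested probe sets the WT count of 5005 became 1223 with only the WT arrays and 541 without the replicate 3 arrays. With 1 array left out it lay between 2744 and 8077. The count for the difference was 41, against 2493 with array weights and 0 to 2702 with 1 array left out. Between the untreated lines it was 3807, against 3773 with only the groups compared and 4889 with array weights. With 1 array left out it lay between 1621 and 5369 there. No called member gene changed sign under any alternative. Replicate numbers recur across groups, and the main fit took no pairs. In the WT line same-numbered arrays had correlations of 0.253, 0.24 and 0.0418 for replicates 1, 2 and 3. Differently numbered ones reached at most 0.0481, -0.106 and 0.113. In the mutant line the same-numbered values were 0.137, 0.0258 and 0.21, against at most 0.00376, 0.0311 and -0.0293. The same-numbered value was thus the highest in replicates 1 and 2 of the WT line and 1 and 3 of the mutant line. The values of a replicate nearly cancel each other, so they are tied and are not separate comparisons. With a replicate block the counts were 6 for the WT line, 0 for the mutant line and for the difference, 1 for the untreated lines and 4 for the lines with tetracycline. CLPP was the added gene (0.32, limma adjusted p = 0.0459). Over all tested probe sets the block fit called 5725 for the WT line and 76 for the difference. It called 4516 between the untreated lines and 8993 between the lines with tetracycline. For the difference, quantile normalization moved the share of higher calls over all probe sets from 46.3% to 26.7%. MAS5 signals near the filter limit what the dim probe sets of YME1L1 and SPG7 can show.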
